A study of Mus musculus with 14 samples.

Results

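The RNA examined here was that listed for processed pseudogenes in newborn mouse cortex. These were the genes that GENCODE vM21 types as processed_pseudogene, with their transcripts summed per symbol. The tables held 8304 such symbols among 51626 in all, and another 3 symbols that are shared with a gene of another type were left out. Of the 8304, 199 had a mean of at least 1 FPKM (fragments scaled to transcript length and library size) in the frontal cortex table, 700 in the table of AUTS2 pull-down and IgG, and 635 in the table of AUTS2 pull-down and input, and these were tested.

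The frontal cortex set came from the rostral cortex at postnatal day 0.5 and held 4 Auts2 cKO and 4 WT libraries. The cKO animals carried Auts2 with exon 15 flanked by loxP sites on both alleles and Emx1-cre, on C57BL6/J, so the deletion was limited to the Emx1 lineage, mainly cortical excitatory neurons and glia, and interneurons and blood vessel cells kept the gene. The WT animals were C57BL6/J with neither allele, and no library with the floxed allele alone or with Cre alone was analysed here. The pull-down set came from C57BL6/J cortex at postnatal day 0.5 with no genetic change. Each of 2 replicates, A and B, was a pool of cortex from 2 neonates, split into an RNA immunoprecipitation (RIP) with an antibody to the C terminus of AUTS2, one with control IgG, and a 10% input. Per the labels, the frontal cortex libraries came from polyA RNA with a TruSeq protocol, and the pull-down set from total RNA with a SMARTer stranded protocol.

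A processed pseudogene is a DNA copy of a messenger RNA that was reverse transcribed, usually by the LINE-1 machinery, and inserted elsewhere in the genome. It has no introns and usually no promoter of its own, and it gathers mutations with age. Genes that are highly expressed in the germ line, such as those of ribosomal proteins, have left most copies. Some copies are transcribed, often within a host gene. Because a young copy still resembles its parent mRNA, a short sequencing read can match both.

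The copies below were chosen because results turn on them. Each is printed 5′ to 3′ on its own strand, from GENCODE vM21 transcripts on GRCm38, above the same stretch of the coding sequence of the gene it resembles most. Capitals mark the bases that differ between a pair. Gm8186 had the highest level in frontal cortex and was identical over 231 bases to the coding sequence of Snrpg, a core protein of splicing particles. In Snrpg these bases lie in 4 exons over 7201 bases of the genome, and in Gm8186 they are unbroken.
Gm8186 chr17:26098991-26099221: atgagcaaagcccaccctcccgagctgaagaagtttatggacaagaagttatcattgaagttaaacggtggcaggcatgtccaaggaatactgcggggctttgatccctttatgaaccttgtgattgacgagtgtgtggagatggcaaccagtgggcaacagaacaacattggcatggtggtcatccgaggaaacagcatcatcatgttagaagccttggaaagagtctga
Snrpg chr6:86371583-86378783: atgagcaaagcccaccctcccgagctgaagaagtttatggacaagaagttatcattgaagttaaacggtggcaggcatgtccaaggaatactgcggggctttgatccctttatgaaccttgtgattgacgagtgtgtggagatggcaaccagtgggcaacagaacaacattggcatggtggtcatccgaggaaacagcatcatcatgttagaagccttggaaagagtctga
Gm11223 had the highest level in both pull-down tables, and differs at 1 of these 120 bases from Stmn1, which encodes the tubulin-binding protein stathmin.
Gm11223 chr4:69925746-69925865: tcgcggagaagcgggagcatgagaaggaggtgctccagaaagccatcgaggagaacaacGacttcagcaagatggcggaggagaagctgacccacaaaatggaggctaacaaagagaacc
Stmn1 chr4:134472832-134472951: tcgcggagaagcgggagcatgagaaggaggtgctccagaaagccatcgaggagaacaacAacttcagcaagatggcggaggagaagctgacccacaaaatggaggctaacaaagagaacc
Tpt1-ps3 lay lower in RIP than in IgG and in input. It is identical to the coding sequence of Tpt1, the translationally controlled tumour protein, which is spread over 3 exons here.
Tpt1-ps3 chr6:99878215-99878334: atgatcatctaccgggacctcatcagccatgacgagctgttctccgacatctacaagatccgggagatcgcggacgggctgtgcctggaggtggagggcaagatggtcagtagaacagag
Tpt1 chr14:75845429-75846220: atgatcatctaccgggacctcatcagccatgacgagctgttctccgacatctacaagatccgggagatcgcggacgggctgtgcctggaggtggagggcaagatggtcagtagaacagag
Gm15538 lay higher in RIP than in IgG and in input, and differs at 10 of these 120 bases from Ptma, the gene of the acidic nuclear protein prothymosin alpha.
Gm15538 chr16:3926521-3926640: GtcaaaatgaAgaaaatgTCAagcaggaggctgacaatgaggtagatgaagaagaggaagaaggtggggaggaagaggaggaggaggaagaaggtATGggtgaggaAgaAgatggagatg
Ptma chr1:86529243-86529751: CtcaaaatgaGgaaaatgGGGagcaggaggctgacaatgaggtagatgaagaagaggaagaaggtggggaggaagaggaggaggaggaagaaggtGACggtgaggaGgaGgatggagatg
Gm9294 lay lower in RIP than in input, and differs at 3 of 120 bases from Rps4x, the gene of a small-subunit ribosomal protein.
Gm9294 chr7:42954236-42954355: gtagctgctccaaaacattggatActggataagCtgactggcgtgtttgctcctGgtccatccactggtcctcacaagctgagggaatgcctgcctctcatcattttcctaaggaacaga
Rps4x chrX:102187931-102188341: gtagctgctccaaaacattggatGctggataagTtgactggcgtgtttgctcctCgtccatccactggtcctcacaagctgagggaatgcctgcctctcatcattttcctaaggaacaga
Gm11407 lay lower in RIP than in IgG and in input. It differs at 9 of 120 bases from mt-Nd5, which the mitochondrial genome encodes for a subunit of respiratory complex I.
Gm11407 chr4:80002538-80002657: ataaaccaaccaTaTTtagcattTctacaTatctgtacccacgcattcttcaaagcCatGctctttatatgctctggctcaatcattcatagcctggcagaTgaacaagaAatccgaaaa
mt-Nd5 chrM:12696-12815: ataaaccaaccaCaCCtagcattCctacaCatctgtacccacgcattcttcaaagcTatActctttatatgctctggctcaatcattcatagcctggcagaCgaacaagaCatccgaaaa

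The 8304 pseudogenes had a median length of 534 bases, with quartiles of 357 and 878 bases, and a median GC content of 47.4%. A single exon was annotated for 7535 of them, 90.7%. Of all, 5827 overlapped no other annotated gene, 855 lay in an intron of a gene on the same strand and 1293 in an intron of a gene on the opposite strand. Another 105 shared an exon with a gene on the same strand and 224 with one on the opposite strand. The symbol or a RefSeq synonym named a parent for 597. A sequence search against protein-coding transcripts found a closest gene for 7581, and where both were known, in 587 cases, the closest gene was the named parent in 566. The median identity to the closest gene was 89.4%. Below, the gene set beside a pseudogene is its named parent where there is one and its closest gene otherwise, and is called its relative.

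Whole-series facts that bear on these values are few. Auts2, whose deletion labels the cKO group, had 29.8 to 35.2 FPKM in cKO and 55.9 to 92.2 FPKM in WT libraries, and its log2 fold change was -1.13 (limma, adjusted p = 0.0237; voom, adjusted p = 0.0804), a call that ended without any 1 of cKO 1 to 4, WT 1 or WT 2. All 6 markers of cortical excitatory neurons stood above 1 FPKM in each of the 14 libraries. FPKM times transcript length fell on whole multiples of a per-library step in 97.2% to 98.3% of pseudogene values, within 0.05 of a whole number, which gives the number of fragments. Libraries so held 17007221 to 19526065 fragments in cKO and 16983003 to 18870495 in WT, 4413245 and 4200187 in RIP A and B, 1294661 and 1885586 in IgG, and 1427627 and 1127772 in input. On a transcript of 500 bases 1 fragment was thus worth 0.092 to 0.115 FPKM in frontal cortex, 0.480 and 0.490 FPKM in RIP, 1.30 and 0.899 FPKM in IgG, and 1.13 and 1.44 FPKM in input. The 2 IgG libraries correlated at Pearson r = 0.488 over the 700 pseudogenes tested and at 0.921 over all genes tested, and the 2 RIP libraries at 0.739 and 0.972. WT 1 and WT 2 resembled each other, with r = 0.993 over all genes, more than they did the other libraries, with 0.980 to 0.987, and cKO 1 stood at 0.980 to 0.986 from every other library. The labels call the libraries biological replicates, and in tissue RNA fewer cells of a type and less RNA per cell cannot be told apart.

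Processed pseudogenes were a minor part of the RNA listed. In frontal cortex they summed to 0.341%, 0.303%, 0.295% and 0.346% of a library's FPKM in cKO 1 to 4, and to 0.333%, 0.314%, 0.316% and 0.309% in WT 1 to 4. The mean was 0.321% ± 0.0259 in cKO and 0.318% ± 0.0103 in WT (SD, n = 4 each), and the groups overlapped. In the pull-down set the share was 0.719% and 0.862% in RIP A and B, 1.48% and 1.23% in IgG A and B, and 1.17% and 1.12% in input A and B. Both RIP libraries lay below both IgG and both input libraries. By fragments, which do not weight a short transcript up, the shares were 0.160% and 0.189% in RIP, 0.362% and 0.296% in IgG, and 0.300% and 0.295% in input. Both RIP libraries again lay lowest, while IgG and input overlapped. The 10 highest pseudogenes carried 16.3% to 17.8% of the pseudogene FPKM in frontal cortex and 12.1% to 13.9% in the pull-down tables.

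**Figure D1:**
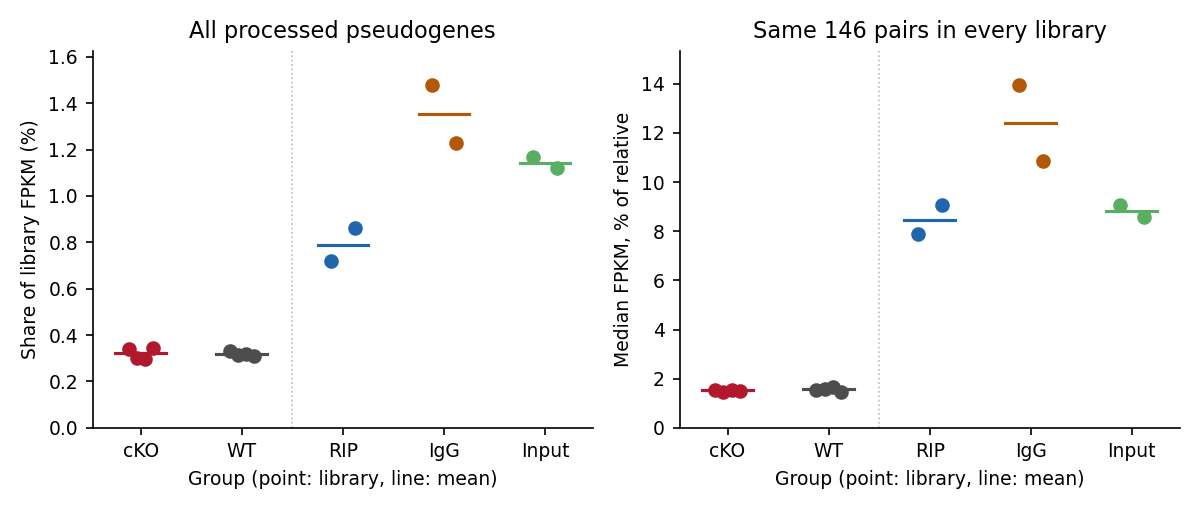
Left, summed FPKM of all processed pseudogenes as a percent of the library's FPKM. Right, the median over the same 146 pseudogenes of their FPKM as a percent of the relative's FPKM. Each point is a library and each line a group mean, and the dotted line parts the frontal cortex set from the pull-down set. The RIP libraries hold 0.719% and 0.862%, below the IgG and input libraries, and the frontal cortex libraries all lie under 0.35%.

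Most levels were low. In frontal cortex 3301 pseudogenes were above 0 in at least 1 library, with a median of 0.0607 FPKM among them, and 10 averaged 10 FPKM or more. With IgG 3131 were above 0 and 30 averaged 10 FPKM or more, and with input 2933 and 33. The sets above the minimum of 1 FPKM overlapped. Frontal cortex and the IgG comparison shared 166, which is 83.4% of the 199 and 23.7% of the 700, and 150 passed in all 3 tables. At the edge of the minimum, Gm10269 stood at 1.003 FPKM and Rab7-ps1 at 0.9996 FPKM in frontal cortex, Wsb2-ps at 1.002 and Gm3687 at 0.9994 FPKM in the IgG table, and Gm10156 at 1.001 and Gm13717 at 0.998 FPKM in the input table.

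The listed level went with likeness to a coding gene. In frontal cortex 28 of the 102 pseudogenes identical to a coding transcript over the aligned stretch averaged at least 1 FPKM, 27.5%. The share was 14.2% at 98% to below 100% identity, 3.74% at 95% to 98%, 1.01% at 90% to 95% and 0.117% at 80% to 90%. Identical copies reached 39.2% in the table with IgG and 37.3% in that with input, and copies at 80% to 90% identity 2.26% and 1.83%. The level of the relative went with it too: among copies at least 98% identical, 25.4% reached 1 FPKM in frontal cortex where the relative had 100 FPKM or more, and 2.40% where it had under 10 FPKM. Among copies under 90% identical those shares were 0.111% and 0.377% in frontal cortex, but 4.04% and 1.61% with IgG and 2.88% and 0.703% with input. Values were whole fragments in 94.0% of the values of identical copies in frontal cortex and in 99.4% of those at 90% to 95%. The share did not rise steadily as identity fell, with 97.4% under 80% identity and 97.3% with no match. The sources used do not state how the authors' counting shared reads between a copy and its relative, so the level of a near-identical copy and that of its relative are uncertain, and the part of shared reads in these levels was not tested.

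**Figure D2:**
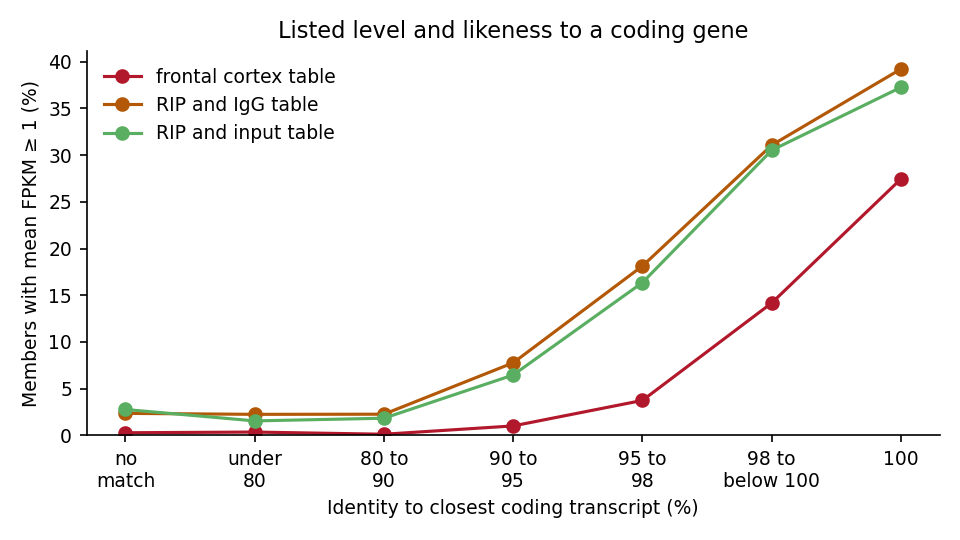
Share of pseudogenes with a mean of at least 1 FPKM (vertical axis, percent) in each class of identity to the closest coding transcript (horizontal axis, percent), with 1 line per table. The share is highest for identical copies in each table, at 27.5%, 39.2% and 37.3%.

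Position in the genome went with the level as well. With IgG, 17.5% of the pseudogenes in a same-strand intron reached 1 FPKM, against 6.93% of those that overlapped no gene and 7.19% of those in an opposite-strand intron. With input these shares were 15.1%, 6.42% and 7.19%, and in frontal cortex 3.16%, 2.27% and 2.01%. Pseudogenes that share an exon with a gene reached 1 FPKM often as well. On the same strand 20% did with IgG, 15.2% with input and 5.71% in frontal cortex, and on the opposite strand 14.3%, 10.3% and 3.57%. The 839 pseudogenes tested in at least 1 table had a median length of 551 bases, against 532 bases for the 7465 tested in none, and a median GC content of 49.3%, against 47.2%. A single exon was annotated for 96.8%, against 90.1%. A parent was named for 147 of the 839, against 450 of the 7465, and a closest gene was found for 816, against 6765.

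The pseudogenes with the highest levels in frontal cortex copied genes of splicing, translation, membrane traffic and the cytoskeleton. Gm8186 (chr17:26098991-26099221, minus strand, overlapping no gene), the copy of Snrpg, had 36.3, 26.2, 27.2 and 29.6 FPKM in cKO and 27.1, 29.3, 31.3 and 23.2 FPKM in WT libraries. It was listed at 112% to 135% of the level of Snrpg itself. Eif4a-ps4 (chr1:60703932-60705149, plus strand), a copy 99.9% identical to Eif4a1, the helicase of translation initiation, averaged 26.1 ± 2.54 FPKM in cKO and 24.8 ± 1.16 FPKM in WT, 7.69% of Eif4a1. Gm13509 (chr2:49308155-49309462, in a same-strand intron of Mbd5) resembles Ap2m1, a clathrin adaptor subunit, and averaged 24.0 ± 1.45 FPKM in cKO and 24.4 ± 1.02 FPKM in WT, 15.9% of Ap2m1. Gm13456, like the elongation factor gene Eef1a1, averaged 21.5 ± 2.64 FPKM in cKO and 20.3 ± 0.665 FPKM in WT, but only 0.785% of the level of Eef1a1. In none of these 4 did the groups stand apart.

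The other 6 of the 10 highest also overlapped between the groups. Tpt1-ps3 averaged 17.7 ± 1.77 FPKM in cKO and 18.0 ± 0.122 FPKM in WT, and Gm7964, a copy of the RNA-binding protein gene Hnrnpk, 17.2 ± 0.899 FPKM in cKO and 16.2 ± 0.882 FPKM in WT. Gm11223 averaged 16.3 ± 2.93 FPKM in cKO and 16.3 ± 1.03 FPKM in WT, 1.41% of Stmn1. Gm9800, a copy of Ptma, averaged 13.4 ± 2.31 FPKM in cKO and 13.4 ± 2.15 FPKM in WT, and Mpc1-ps, whose parent Mpc1 encodes part of the mitochondrial pyruvate carrier, 11.5 ± 1.07 FPKM in cKO and 11.5 ± 1.64 FPKM in WT. Gm6180, a copy of the actin-severing protein gene Cfl1, averaged 9.96 ± 1.04 FPKM in cKO and 11.2 ± 0.958 FPKM in WT (SD, n = 4 each throughout). Their adjusted p-values ran from 0.641 to 0.989 (limma).

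No processed pseudogene passed the test between cKO and WT. With limma at an adjusted p of 0.05, 0 of 199 were higher and 0 were lower, where 0.00782% and 0.0156% of all 12786 genes tested were, and voom on the recovered fragments also called 0 of 1236, where it called 0.00504% of all genes higher and 0% lower. At an unadjusted p of 0.05, 10 of 199 or 5.03% passed, against 7.91% of all genes. The median log2 fold change was 0.02 over the pseudogenes and 0.00 over all genes tested. Leaving out WT 1 and WT 2, or these and cKO 1, also left 0 called.

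The most extreme statistics are given as values. Gm14539, a copy of the ATP synthase subunit gene Usmg5 (100% identity), had 1.58, 0.934, 2.32 and 2.01 FPKM in cKO and 0.900, 0.634, 0.322 and 0.581 FPKM in WT libraries, which are 3 to 7 and 1 to 3 fragments. Its log2 fold change was 0.74 ± 0.17 (SE; limma, adjusted p = 0.517), and Usmg5 itself had 0.13 (adjusted p = 0.641). Rbm3-ps averaged 2.42 ± 0.295 FPKM in cKO and 1.58 ± 0.150 FPKM in WT, with the groups apart and an adjusted p of 0.613, while its parent Rbm3, a cold-inducible RNA-binding protein gene, averaged 173 ± 17.5 FPKM in cKO and 161 ± 12.6 FPKM in WT. Gm10060, 111 bases long and like the p97 cofactor gene Nsfl1c, averaged 4.59 ± 1.06 FPKM in cKO and 8.95 ± 2.81 FPKM in WT, with the groups apart and an adjusted p of 0.613. Gm45380, Gm2223 and Gm3531 had log2 fold changes of 0.34, 0.36 and 0.31, and Rpl22-ps1, Rpl36-ps12, Gm14276 and Gm7862 had -0.38, -0.39, -0.28 and -0.39, with adjusted p-values of 0.628 to 0.641.

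Against IgG the pseudogenes lay lower in RIP. Of the 700 tested, 8 were called higher and 95 lower, 1.14% and 13.6%, where 13.7% and 9.69% of all 14570 genes tested were called (limma, adjusted p of 0.05). The median log2 fold change was -0.48 over the pseudogenes and 0.02 over all genes. As the minimum is on the mean of all 4 libraries, 206 of the 700 passed through IgG alone, with a RIP mean under 1 FPKM. Another 42 passed through RIP alone. Of the 95 called lower 41 passed through IgG alone, and of the 8 called higher 5 passed through RIP alone. These counts thus describe the pseudogenes that passed and not all 8304. Fragments were few: the median was 14 over the 4 libraries together, 232 pseudogenes had under 10 and 29 had 100 or more. Voom on the fragments called 5 of 530 higher and 84 lower, 0.943% and 15.8%, where it called 20.3% and 18.1% of all genes, and its median was -0.57. Setting the 30 pseudogenes with a group at 0 to a floor of 3 fragments per library gave a median of -0.44 with limma. Without IgG A, limma called 0 of 632 pseudogenes and 0 of 14330 genes at the adjusted threshold, with 177 and 5177 at an unadjusted p of 0.05, and the median was -0.37. Each call against IgG named below thus ended without IgG A. Without RIP A or RIP B, the share called lower was near that of all genes, and without IgG B it stayed above. The medians were then -0.43, -0.57 and -0.74 over the pseudogenes, and 0.02, 0.01 and 0.04 over all genes. Each of these fits leaves 1 library in a group.

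Against input the median was also below that of all genes, but the share called lower was near the background. Of the 635 tested, 18 were called higher and 111 lower, 2.83% and 17.5%, where 19.3% and 16.6% of all 14458 genes were. The median log2 fold change was -0.42 over the pseudogenes and -0.02 over all genes, and -0.34 with the 46 that had a group at 0 set to the floor. Through input alone 163 passed, and 54 through RIP alone. Of the 111 called lower 41 passed through input alone, and of the 18 called higher 10 passed through RIP alone. Voom called 14 of 466 higher and 81 lower, 3.00% and 17.4%, where it called 24.2% and 23.7% of all genes. The IgG and input comparisons share the RIP libraries, so the values of both rest in part on the same measurements. Without RIP A 0 of 697 were called higher and 16 lower, 2.30%, where 5.33% and 4.20% of all genes were called (limma). Without RIP B 0 of 675 were called higher and 35 lower, 5.19%, where 7.12% and 5.95% of all genes were. At an unadjusted p of 0.05, in either direction, 111 and 133 passed there.

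Transcript length moved with the fold changes in all genes. Against input the median log2 fold change of pseudogenes was -1.18 up to 300 bases, -0.63 at 301 to 600 bases, -0.31 at 601 to 1000 bases and -0.21 at 1001 to 2000 bases. That of other genes was -0.96, -0.71, -0.46 and -0.14 in those classes, and 0.15 over 2000 bases. Against IgG the pseudogenes had -0.59, -0.49, -0.51 and -0.46, and other genes -0.65, -0.30, -0.08 and -0.02. With trends on length and GC content fitted over all genes and removed, the median against IgG was -0.19, with 17 of 700 higher and 42 lower, 2.43% and 6.00%, where 10.5% and 7.5% of all genes were called. Against input the median turned to 0.10, with 47 of 635 higher and 35 lower, 7.40% and 5.51%, where 14.6% and 13.5% of all genes were called. The direction of the median against input thus depended on this correction.

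**Figure D3:**
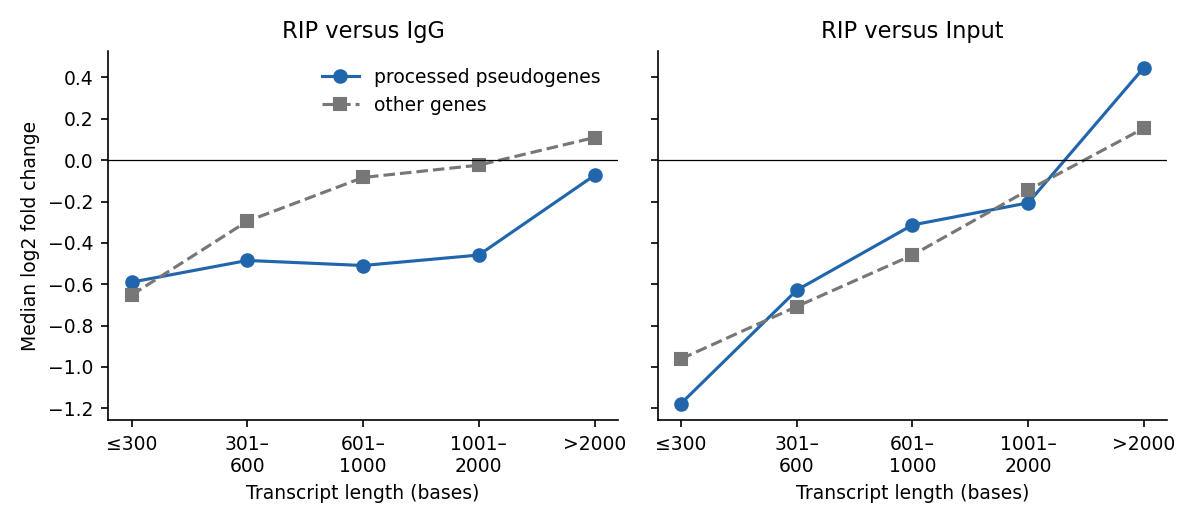
Median log2 fold change (vertical axis) of processed pseudogenes and of other genes in classes of transcript length in bases (horizontal axis), RIP against IgG on the left and RIP against input on the right. Against input the lines run together, from -1.18 and -0.96 in the shortest class upward, and against IgG the pseudogenes stay at about -0.5 up to 2000 bases. The class over 2000 bases holds 20 pseudogenes on the left and 16 on the right.

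Some sets of cell markers differed between these groups as well, and others overlapped. Summed striatal markers (Penk, Drd1, Drd2 and Adora2a) ran to 101 to 116 FPKM in RIP and 58.6 to 82.7 FPKM in IgG, and to 103 to 118 FPKM in RIP and 52.0 to 53.5 FPKM in input, with all 4 above 1 FPKM. Red blood cell markers summed to 19.1 to 39.3 FPKM in RIP and 67.0 to 77.3 FPKM in input, with Alas2 near 0 in RIP. Microglial markers summed to 8.51 to 9.24 FPKM in RIP and 13.5 to 14.9 FPKM in IgG, and to 8.66 to 9.38 FPKM in RIP and 11.5 to 15.3 FPKM in input. Endothelial markers summed to 12.9 to 15.7 FPKM in RIP and 22.1 to 25.8 FPKM in input, and overlapped between RIP and IgG. Radial glia markers summed to 95.5 to 121 FPKM in RIP and 81.3 to 84.1 FPKM in IgG, and to 97.3 to 122.5 FPKM in RIP and 74.3 to 90.1 FPKM in input. Interneuron markers were also higher in RIP, with 105 to 116 FPKM in RIP and 100.2 to 101.1 FPKM in IgG, and 107 to 118 FPKM in RIP and 79.6 to 87.5 FPKM in input. Astrocyte markers overlapped in both comparisons, and red blood cell and cortical excitatory neuron markers overlapped between RIP and IgG. Excitatory neuron markers summed to 429 to 454 FPKM in RIP and 388 to 398 FPKM in input. The part of these marker differences in the pseudogene values was not tested.

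Among the called rises, Gm15538 (chr16:3926428-3926740, plus strand) lies in a same-strand intron of Cluap1, a gene of ciliary transport, and is 85.4% identical to Ptma. It had 10.7 and 18.0 FPKM in RIP and 2.07 and 4.31 FPKM in IgG, which are 14 and 23 against 1 and 3 fragments. Its log2 fold change was 1.89 ± 0.35 (SE; limma, adjusted p = 0.0149; voom, adjusted p = 0.0434). In the other table it had 10.9 and 18.3 FPKM in RIP and 0 and 2.30 FPKM in input, with a log2 fold change of 3.06 ± 0.58 (adjusted p = 0.0109). The call against IgG ended without RIP B, IgG A or IgG B, and that against input without RIP A or RIP B. Ptma went the other way, with log2 fold changes of -0.61 against IgG (adjusted p = 0.0116) and -0.90 against input (adjusted p = 0.00236). The host Cluap1 had 18.1 and 16.9 FPKM in RIP and 18.1 and 8.54 FPKM in IgG, with 0.46 (adjusted p = 0.346), and 0.64 against input (adjusted p = 0.0433), while voom called it higher against IgG too (adjusted p = 0.0163).

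Gm16581 (chr1:55127297-55128287, plus strand, overlapping no gene) is 92.3% identical to Srrm2, which encodes a scaffold of nuclear speckles. It had 3.94 and 5.27 FPKM in RIP and 0 and 0.726 FPKM in input, or 16 and 21 against 0 and 1 fragments, and a log2 fold change of 2.08 ± 0.38 (adjusted p = 0.00944), a call that ended without RIP A or RIP B. It averaged under 1 FPKM in input, so in that comparison it passed the minimum through RIP alone, the group where it was high. Against IgG it had 16 and 21 against 3 and 7 fragments, with 0.64 ± 0.29 (adjusted p = 0.162). Srrm2 itself was higher in RIP, with log2 fold changes of 1.87 against input and 1.27 against IgG (adjusted p = 0.000677 and 0.00248). Gm27219 (chr9:36813133-36813874) is 96.8% identical to Nop56, a protein of the snoRNA particles that guide RNA methylation. It had 2.91 and 5.62 FPKM in RIP and 0.874 and 0 FPKM in IgG, with a log2 fold change of 1.89 ± 0.45 (adjusted p = 0.0292), and leaving out any 1 library ended that call. Gm27219 averaged under 1 FPKM in IgG, so it passed the minimum against IgG through RIP alone. Against input Gm27219 had 0.36 ± 0.36 and was not called (adjusted p = 0.461). Nop56 was called higher against IgG, with 1.07 (adjusted p = 0.0128).

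Gm45380 (chr7:101790536-101790850, in a same-strand intron of Clpb, a mitochondrial disaggregase gene) is 95.7% identical to the ribosomal protein gene Rpl31. It had 5.33 and 7.0 FPKM in RIP and 0 and 1.43 FPKM in IgG, a log2 fold change of 2.19 ± 0.46 (adjusted p = 0.0200), which voom did not call (adjusted p = 0.0797) and which ended without RIP A, RIP B or IgG A. Gm45380 averaged under 1 FPKM in IgG, so it passed the minimum there through RIP alone, the group where it was high. Gm15696, like Rps18, and Gm2830, like Rps24, had log2 fold changes of 1.45 and 1.00 against IgG (adjusted p = 0.0150 and 0.0415), with 14 and 10 against 1 and 2 fragments and 9 and 7 against 1 and 2 fragments. Neither was called by voom, with adjusted p-values of 0.127 and 0.374, and both calls ended with any 1 library left out. That of Gm2830 also ended with the trio letter as a block (adjusted p = 0.0531). Against input Gm45380, Gm15696 and Gm2830 had 1.75, 0.75 and -0.05, and none passed (adjusted p = 0.0986, 0.0572 and 0.923). Of the 8 called rises against IgG 3 were at 0 in both IgG libraries, and of the 18 against input 6 were at 0 in both input libraries. In FPKM none of these exceeded what a floor of 3 fragments per library allows in the group at 0, so no fold is given for them. Against IgG they were Rps12-ps26 with 5 and 4 fragments in RIP, Gm48557 with 10 and 3 and Gm8648 with 2 and 2. Against input they were Rpl17-ps4 with 5 and 5 fragments in RIP, Gm47187 with 4 and 2, Gm15670 with 3 and 5, Rpl31-ps11 with 2 and 5, Gm2225 with 5 and 2 and Gm12328 with 2 and 2. With single libraries left out, Rpl17-ps4 and Gm12328 were tested in only 2 settings each, those without 1 of the input libraries. They were called there, but both input libraries stood at 0, so leaving 1 out could not check the calls. Each of the other 7 lost its call at least once. Gm15670 went the other way against IgG, where it had 3 and 5 fragments in RIP and 4 and 7 in IgG and was called lower (-1.24 ± 0.28, adjusted p = 0.0259), a call that ended with any 1 library left out. The other 5 rises against input were not called against IgG, nor were the 3 rises against IgG called against input.

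Among the falls were copies with more fragments. Tpt1-ps3 (chr6:99877816-99878334, minus strand) had 15.3 and 19.4 FPKM in RIP and 43.7 and 36.4 FPKM in IgG, with a log2 fold change of -1.17 ± 0.17 (adjusted p = 0.00698). In the other table it had 15.5 and 19.7 FPKM in RIP and 64.3 and 55.4 FPKM in input, with -1.72 ± 0.16 (adjusted p = 0.00133), a call that held with any 1 library left out. Its parent Tpt1 had 141 and 176 FPKM in RIP and 218 and 204 FPKM in IgG, which did not pass with limma (adjusted p = 0.0665) but did with voom (adjusted p = 0.000589), and a log2 fold change of -1.64 against input (adjusted p = 0.000872). The other 2 named copies of Ptma, Gm4617 and Gm9800, fell against IgG, as Ptma did. Gm4617 had 28.3 and 33.3 FPKM in RIP and 68.6 and 59.8 FPKM in IgG (-1.04 ± 0.14, adjusted p = 0.00541), and Gm9800 had 18.3 and 27.6 FPKM in RIP and 40.4 and 37.3 FPKM in IgG (-0.76 ± 0.20, adjusted p = 0.0405), a call that ended without RIP A, IgG A or IgG B.

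Gm9294 (chr7:42953600-42954388, minus strand) had 0.619 and 0.631 FPKM in RIP and 7.88 and 9.11 FPKM in input, or 2 and 2 against 11 and 10 fragments. Its log2 fold change was -2.54 ± 0.25 (adjusted p = 0.00152), and it was called with any 1 library left out. Its relative Rps4x had 27.3 and 38.1 FPKM in RIP and 140 and 133 FPKM in input, with -2.05 (adjusted p = 0.00104). Gm7600, like Rps3a1, and Rps12-ps24 had -2.35 and -2.41 (adjusted p = 0.00269 and 0.00433) and were also called with any 1 library left out. In RIP they had 1 and 1 fragments and 1 and 0 fragments. Gm9294, Gm7600 and Rps12-ps24 averaged under 1 FPKM in RIP, so they passed the minimum through input alone, the group where they were high. Snrpert, a copy of the Sm protein gene Snrpe, was called lower and had 0 and 0 fragments in RIP and 4 and 2 in input. It passed the minimum through input alone. Its input mean in FPKM was 2.5 times a floor of 3 fragments per RIP library, a ratio that leaves out the counting error of the input fragments. Gm14331, like the ubiquitin-conjugating enzyme gene Ube2d3, had 7.76 and 9.74 FPKM in RIP and 26.3 and 29.9 FPKM in input (-1.58 ± 0.17, adjusted p = 0.00205). Gm6108, like the histone variant gene H2afz, had 16 and 14.2 FPKM in RIP and 38.5 and 45.1 FPKM in input (-1.41 ± 0.14, adjusted p = 0.00174). Against IgG, Gm9294, Rps12-ps24 and Snrpert were called lower too, each call ending with at least 1 library left out and that of Gm9294 with the trio letter as a block (adjusted p = 0.0562). Gm9294, Rps12-ps24 and Snrpert passed the minimum there through IgG alone, the group where they were high. Gm14331 and Gm6108 did not pass against IgG (adjusted p = 0.294 and 0.0659), though Gm6108 did with the block (adjusted p = 0.0238).

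Against IgG, Gm48869 (chr13:9352028-9352689, in a same-strand intron of Dip2c) resembles Rps6 at only 75.3%. It had 1.45 and 1.48 FPKM in RIP and 13.7 and 10.2 FPKM in IgG (-2.38 ± 0.24, adjusted p = 0.00321), while its host Dip2c was higher in RIP at 0.65 (adjusted p = 0.0288). Other large falls rested on few fragments. Gm15720, like the calmodulin gene Calm2, had 3 and 0 fragments in RIP and 4 and 6 in IgG. Gm30738, like the cap-binding protein gene Eif4e, had 2 and 0 against 3 and 11, Gm6069, like the cyclophilin gene Ppia, 1 and 0 against 5 and 4, and Cox6c2, like the respiratory chain gene Cox6c, 0 and 2 against 4 and 3. Their log2 fold changes were -2.46, -2.38, -2.34 and -2.37, with adjusted p-values of 0.0274, 0.0209, 0.0102 and 0.0316. Besides IgG A, the calls of Gm15720, Gm30738 and Cox6c2 ended without IgG B, those of Gm30738 and Gm6069 without RIP B, and that of Cox6c2 without RIP A and with the block (adjusted p = 0.0626). Gm30738 and Gm6069 averaged under 1 FPKM in RIP, so they passed the minimum through IgG alone, the group where they were high. Gm9174, like Cdc26, was called lower and was at 0 in RIP with 2 and 2 fragments in IgG, through which alone it too passed the minimum. Its IgG mean in FPKM was 1.49 times the same floor, a ratio that leaves out the counting error of the IgG fragments. Against input, Gm48869, Cox6c2 and Gm15720 were called lower too, each call ending with at least 1 library left out. Gm6069 and Gm9174 were not called against input, and Gm30738 was under the minimum there.

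**Figure D4:**
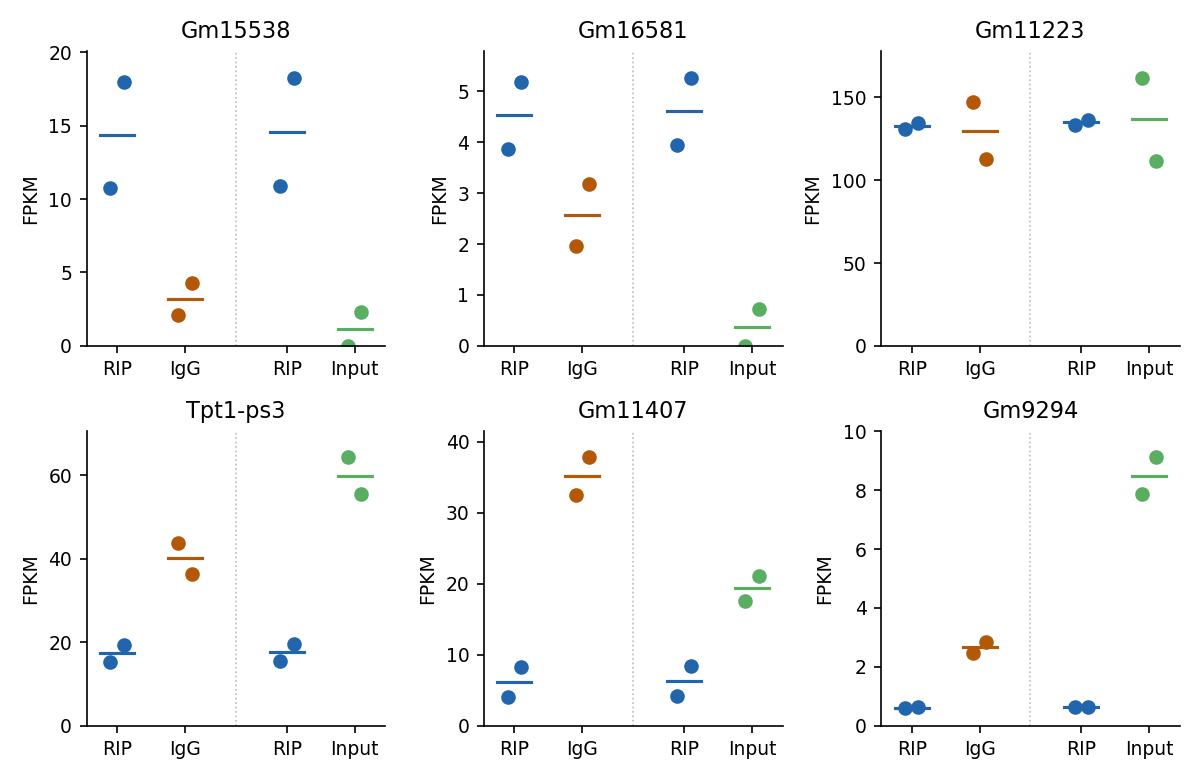
FPKM of 6 named pseudogenes in each RIP and IgG library (left of the dotted line) and, as scaled in the other table, in each RIP and input library (right). Points are libraries A and B and lines are means. Gm15538 and Gm16581 are highest in RIP, Gm11223 overlaps between groups, and Tpt1-ps3, Gm11407 and Gm9294 are lowest in RIP.

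The pseudogene with the highest level in the pull-down set showed no difference past the test. Gm11223 had 131 and 135 FPKM in RIP and 147 and 113 FPKM in IgG, from 246 and 247 against 102 and 113 fragments, with a log2 fold change of 0.04 ± 0.14 (adjusted p = 0.854). In the other table it had 134 and 137 FPKM in RIP and 162 and 112 FPKM in input (0.00 ± 0.18, adjusted p = 0.988). The groups overlapped in both tables. Stmn1 itself was lower in RIP than in input, at -0.45 (adjusted p = 0.00652), and did not pass against IgG, at 0.40 (limma, adjusted p = 0.106; voom, adjusted p = 0.000764). Gm11223 stood at 33.9% to 44.5% of Stmn1 in the RIP and IgG libraries, where in frontal cortex it stood at 1.21% to 1.58%. The copies Gm15459 and Gm8355 of the chaperone gene Hspa8 had 226 and 227 fragments and 160 and 142 fragments in RIP, and log2 fold changes of -0.11 and -0.04 against IgG (adjusted p = 0.726 and 0.910). Hspa8 itself was higher in RIP than in IgG, at 0.54 (adjusted p = 0.0106).

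Copies stood closer to their relatives' levels in the pull-down set than in frontal cortex. Over the same 146 pseudogenes tested with their relatives in all 3 tables, the median level was 1.47% to 1.56% of the relative in cKO and 1.47% to 1.65% in WT libraries. It was 7.87% and 9.06% in RIP, 13.9% and 10.9% in IgG, and 9.06% and 8.58% in input. Counted in fragments, it was 0.687% to 0.819% in cKO, 0.771% to 0.877% in WT, 4.43% and 5.36% in RIP, 8.03% and 5.13% in IgG, and 4.66% and 4.40% in input. The sets differ in RNA fraction (polyA or total), library protocol, tissue piece and depth, which cannot be told apart here.

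Pseudogenes were set beside their relatives within each comparison. Against IgG, 670 pseudogenes had a tested relative, and the median log2 fold change was -0.47 for the pseudogenes and 0.06 for their 380 relatives, counted once per pair. Both were lower in 26 pairs and both higher in 2. The pseudogene was lower and its relative not called in 54 pairs, and the pseudogene was lower and the relative higher in 9. In 110 pairs the relative was higher and the pseudogene not called. Of 89 pseudogenes called lower, 26 thus had a relative called lower, where 12.8% of the relatives were over all pairs. Against input there were 603 pairs, with medians of -0.42 for the pseudogenes and -0.57 for the relatives. Both were lower in 85 pairs and both higher in 6, the pseudogene was lower with its relative not called in 19, and in 235 the relative was lower and the pseudogene not called. Of 104 pseudogenes called lower, 85 had a relative called lower, where 53.7% of the relatives were over all pairs. Where the symbol or annotation names the parent the medians were -0.26 and 0.10 over 116 pairs against IgG and -0.44 and -0.64 over 118 pairs against input. The difference between the fold changes of a pair was not tested, and a near-identical pair shares reads.

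**Figure D5:**
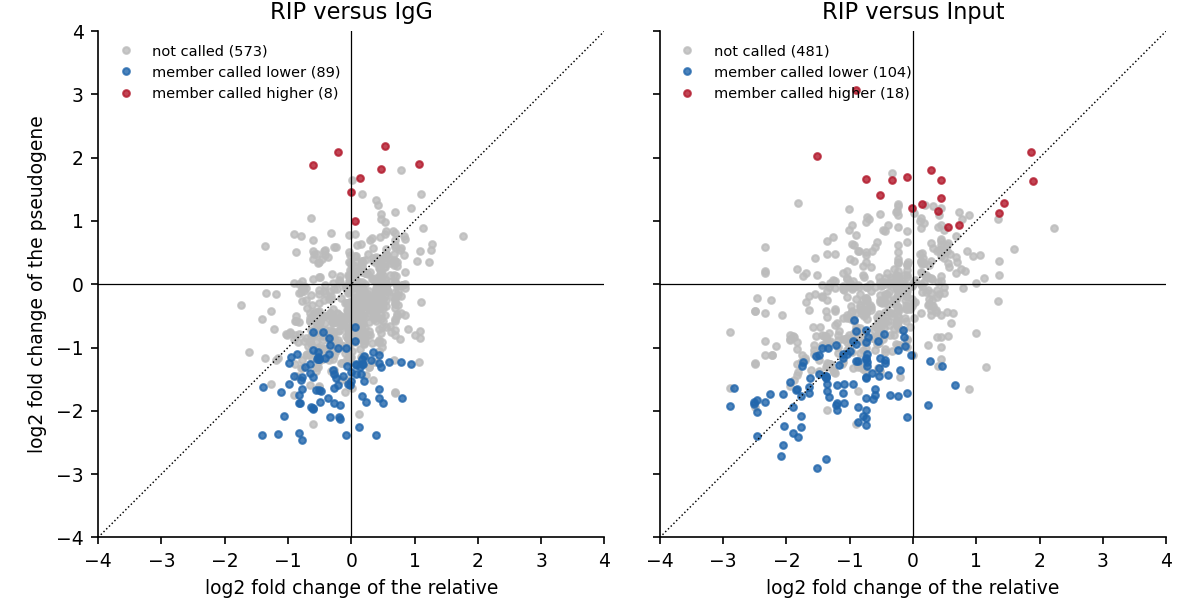
Log2 fold change of each pseudogene (vertical axis) against that of its relative (horizontal axis), RIP against IgG on the left (670 pairs) and RIP against input on the right (603 pairs). Points are pairs, coloured by the call on the pseudogene, and the dotted line marks equal change. Against IgG most called falls sit at relatives near 0, and against input more of them sit where the relative is below 0 too.

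The counts by family stand beside the shares of all genes called by limma at an adjusted p of 0.05. These were 13.7% higher and 9.69% lower against IgG, and 19.3% higher and 16.6% lower against input. No family was tested as a set. By family, copies of cytosolic ribosomal protein genes were the most numerous, with 1970 listed. Against IgG 193 were tested, 5 were higher and 23 lower, with a median of -0.26, and of their 61 tested relatives 10 were higher and 2 lower. Against input 205 were tested, 6 were higher and 46 lower, with a median of -0.79, and of 70 tested relatives 51 were lower and none was higher. Copies of glycolytic genes were numerous but rarely reached the minimum: of 443 listed 10 were tested against IgG, with 1 lower, and 8 against input, with 3 lower. Gm11658, like Gapdh, had 4.12 and 5.68 FPKM in RIP and 12.3 and 15.0 FPKM in input (-1.32 ± 0.22, adjusted p = 0.00714), a call that ended without RIP A or input B.

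Of the 180 copies of RNA-binding and nuclear protein genes 45 were tested against IgG, with 1 higher and 8 lower and a median of -0.60. That list also holds Tpt1, Nap1l1 and the Ywha genes, whose copies made up 9 of the 45 and 2 of the 8. Against input 36 were tested, with 1 higher and 6 lower and a median of -0.32. The list of cytoskeletal genes also holds Ppia. Of its 27 tested copies 7 were lower against IgG and none was higher, among them 2 of 5 copies of Ppia, and against input 1 of 23 was lower, not a copy of Ppia. For high mobility group and histone genes 5 of 43 were lower against IgG and 6 of 40 against input. Gm6104, like Hmgb3, had 3.98 and 4.47 FPKM in RIP and 14 and 9.69 FPKM in IgG (-1.28 ± 0.24, adjusted p = 0.0145), a call that also ended without RIP A or RIP B, whereas Hmgb3 had 0.07 (adjusted p = 0.714). Of 17 copies of translation factor genes 0 were called against IgG and 1 of 13 was higher and 3 were lower against input. Copies of chaperone and protein turnover genes had 1 of 31 higher and 4 lower against IgG, and 2 of 29 higher and 4 lower against input. For nuclear genes of mitochondrial respiration 1 of 9 was lower against IgG and 3 of 14 against input, where 10 of 14 relatives were lower.

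Copies of mitochondrial DNA formed a group of their own, picked after its values were seen. Such copies usually enter the nucleus as DNA and not through an mRNA, but the annotation gives them the same gene type. Of 18 listed, none reached 1 FPKM in frontal cortex, where they summed to 1.30 to 1.87 FPKM in cKO and 0.629 to 1.30 FPKM in WT libraries. They summed to 17.5 and 27.5 FPKM in RIP and 111 and 101 FPKM in IgG, and to 17.8 and 27.9 FPKM in RIP and 49.4 and 76.5 FPKM in input, so that RIP lay below both. Gm11407 (chr4:80002331-80003388, plus strand) had 4.08 and 8.34 FPKM in RIP and 32.5 and 37.8 FPKM in IgG, or 18 and 36 against 53 and 89 fragments, with a log2 fold change of -2.39 ± 0.29 (adjusted p = 0.00464), and voom also called it, but the call ended without IgG B too. Against input it had 4.16 and 8.47 FPKM in RIP and 17.6 and 21.1 FPKM in input (-1.54 ± 0.31, adjusted p = 0.0133), a call that ended without RIP A, input A or input B.

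Its neighbour Gm11410 (chr4:80003989-80005131, plus strand) resembles mt-Cytb, the cytochrome b gene of complex III. It had 3 and 3 fragments in RIP, 18 and 18 in IgG and 12 and 12 in input, with log2 fold changes of -2.54 ± 0.28 against IgG (adjusted p = 0.00368) and -2.22 ± 0.26 against input (adjusted p = 0.00257). Gm11410 averaged under 1 FPKM in RIP, so it passed the minimum through IgG alone and through input alone, the groups where it was high. Gm4076 (chr13:85126550-85127514, minus strand), like mt-Nd5, had 12.1 and 18.5 FPKM in RIP and 62.8 and 50.5 FPKM in IgG (-1.84 ± 0.22, adjusted p = 0.00420). Against input its log2 fold change was -1.06 ± 0.33, which did not pass (adjusted p = 0.0502) but did with the block (adjusted p = 0.00342). All 37 genes of the mitochondrial genome itself were listed at 0 in each pull-down library and summed to at most 0.366 FPKM in frontal cortex, so these copies could not be set beside their source, and the part of mitochondrial RNA in their values was not tested.

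Copies within introns were also set beside their hosts. Against IgG 118 tested pseudogenes lay in a same-strand intron of 1 tested protein-coding gene. Their median log2 fold change was -0.40 and that of the hosts 0.05, with both lower in 3, the pseudogene lower and the host higher in 4, and no pair with both higher. Of these 118 pseudogenes 20 were lower and 4 higher. Of their hosts, counted once per pair, 12 were lower and 24 higher, 10.2% and 20.3%. Among all genes tested 9.69% were lower and 13.7% higher. Against input the 106 such pairs had medians of -0.41 and 0.21, both were higher in 2 and both lower in 2, and the pseudogene was lower and the host higher in 7. Of these 106 pseudogenes 15 were lower and 5 higher. Of their hosts 11 were lower and 31 higher, 10.4% and 29.2%, where 16.6% and 19.3% of all genes tested were. Joint calls were too few to read anything from.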

How the data were processed

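RNA was measured by sequencing in 4 cKO, 4 WT, 2 RIP, 2 IgG and 2 input libraries. The deposited values are FPKM per transcript, scaled by the authors to transcript length and library, per the file headers, which name GENCODE vM14. STAR 2.5, Cuffdiff 2.2.1 and SAMtools are listed, without roles, with build GRCm38.p4 (mm10), per the submitters' processing notes. Neither strand settings nor the treatment of reads with several matches is stated. The 3 tables were scaled separately, so tests stay within a table, and cKO 4 was matched to its column by library number, as its label and column differ in short name.

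Of 128508 transcripts 127975 matched vM21 and were summed per symbol. Tests covered genes averaging 1 FPKM or more, on log2(FPKM + 1), a scale that understates low genes, with limma 3.58.1 (R 4.3.3, trend and robust, two-sided), and p-values were adjusted by Benjamini-Hochberg over all genes tested in a table. Fragments were recovered from the FPKM steps and tested with limma voom, an alternative chosen after seeing the data, at 10 or more fragments per gene. The spread in that fit was estimated between the libraries of a group, of which RIP, IgG and input have only 2 each. Closest genes came from blastn 2.17.0 (word size 16, at least 100 aligned bases, same strand), leaving out genes at the pseudogene's own place. Tables used pandas 2.3.3 and numpy 2.4.6, and figures matplotlib 3.10.9, in Python 3.11.15. The fits were also run on simulated data with large changes set in, and the outcome is not used as support here.

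The series design calls RIP, IgG and input matched trios, so the letters pair them. Within a trio, deviations from the group mean had r = 0.0088 between RIP and IgG, and r = 0.012 between RIP and input. The numbers of the cKO and WT animals pair nothing.

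Named are the 10 highest per table, up to 8 largest rises and 8 largest falls among called pseudogenes with groups apart and at least 2 FPKM in the higher group, or the 5 highest and 5 lowest statistics where under 5 were called, up to 3 of the highest per family, and relatives; some that this rule selects are given only within counts. Gm16581 against IgG and copies of mitochondrial DNA were added after their values were seen. Members, families and tests were chosen with earlier results of these data known.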

Additional observations from a re-analysis of the deposited data

Results flagged for a closer look

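Of 74 groups of 4 frontal cortex libraries examined, over the named pseudogenes and their sum, 2 held a library far from the other 3 by Dixon's criterion at 95%, which chance alone would flag in about 1 of 20 groups. Gm15459, a copy of Hspa8, had 3.73 FPKM in cKO 1, below the other cKO libraries at 5.22 to 5.52 FPKM. Rpl36-ps12 had 2.87 FPKM in WT 3, above the other WT libraries at 1.30 to 1.56 FPKM.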

How the results depend on the processing

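Between cKO and WT 0 pseudogenes were called under any alternative run, the replicate block included (0 higher, 0 lower, median 0.02). Single libraries left out gave medians of -0.00 to 0.06 and summed FPKM ratios of 0.999 to 1.06. With the replicate block 9 were higher and 107 lower against IgG and 21 and 121 against input, within 1.5 times the counts above; of the named calls it ended those of Gm2830, Cox6c2 and Gm9294 against IgG, and it called Gm6108 against IgG and Gm4076 against input.

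Against IgG single libraries left out gave 0 to 3 higher, 0 to 57 lower, medians of -0.74 to -0.37 and ratios of 0.577 to 0.701. Against input they gave 0 to 17 higher, 16 to 79 lower, medians of -0.56 to -0.40 and ratios of 0.632 to 0.752. The numbers tested differ between the settings that follow, so their counts do not compare directly. Against IgG 4 of 700 were higher at a pseudocount of 0.1 and 2 of 102 at a minimum of 5 FPKM. With voom 5 of 530 were higher, with length and GC trends removed 17 of 700, and among overlap-free pseudogenes 3 of 404. Lower were 60 of 3131 with no minimum, 30 of 102 at 5 FPKM and 54 of 695 with quantile normalization. With trends removed 42 of 700 were lower, and 58 of 404 overlap-free. Medians against IgG were -0.63 and -0.20 at pseudocounts of 0.1 and 5, -0.16 with no minimum, -0.25 with quantile normalization and -0.19 with trends removed. Against input 6 of 102 were higher and 43 lower at 5 FPKM. With trends removed 47 of 635 were higher and 35 lower, and 68 of 374 overlap-free pseudogenes were lower. Medians against input were -0.58 and -0.19 at the pseudocounts, -0.65 at 5 FPKM, -0.22 with quantile normalization, and turned to 0.033 with no minimum, where 2933 pseudogenes enter, and to 0.10 with trends removed. The cause of the other shifts was not tested. Over all alternatives, 128 values of named calls against IgG, 66 against input and 10 of Auts2 between cKO and WT fell short of the threshold, and no call turned round. With 10 values Tpt1, Stmn1, Cluap1 or Gm6108, not called against IgG, passed it, and with 9 values Gm45380, Gm15696 or Gm4076, not called against input. Depth in IgG and input, where 1 fragment is worth about 1 FPKM, limits all pull-down values.

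The sign of some log2 fold changes that did not pass was unsettled. Between cKO and WT, libraries left out gave -0.075 to 0.023 for Tpt1-ps3, -0.11 to 0.057 for Gm11223, -0.10 to 0.089 for Gm9800, -0.038 to 0.11 for Mpc1-ps and -0.016 to 0.14 for Gm13456. Gm9800 had 0.11 without WT 1 and WT 2, and 0.0039 with voom. Against IgG single libraries left out gave -0.15 to 0.23 for Gm11223, -0.39 to 0.17 for Gm15459, -0.28 to 0.20 for Gm8355 and -0.045 to 0.96 for Cluap1, and against input -0.26 to 0.27 for Gm11223, -0.015 to 0.74 for Gm27219 and -0.45 to 0.36 for Gm2830. Gm11223 had -0.00559 against IgG and -0.00800 against input with median-ratio rescaling, -0.24 and -0.31 with quantile normalization, and -0.026 against input with voom. Hmgb3 had -0.13 with quantile normalization and -0.086 with voom against IgG, and with trends removed Gm8355 had 0.025 and Gm14331 0.51. Gm2830 against input had 0.084 with quantile normalization and 0.84 with trends removed.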
